A study of Drosophila melanogaster with 30 samples.

Results

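The unselected control sorts of a silencer reporter screen in Drosophila melanogaster embryos are described here, 12 of the 30 libraries of the series. They were chosen by their labels: 6 first-round libraries from CD2+ cells, labelled as mesodermal, and 6 from CD2- cells, labelled as non-mesodermal. Each CD2+ library has a CD2- library from the same collection date, and neither sort used a gate on GFP. The 6 dates are called days 1 to 6. Days 1 to 3 and days 4 to 6 are 2 runs of consecutive dates. They are called experiments 1 and 2 here, after the names of 2 deposited tables. No label states which dates belong to which experiment, so this assignment is inferred from the dates, and every result by experiment rests on it.

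The screen asks which pieces of DNA silence a reporter in mesoderm. Each piece, called an element here, sits with its own barcode in a construct whose GFP is driven by a strong enhancer active throughout the embryo. Twist is a transcription factor that specifies the fly mesoderm, and the twi:CD2 transgene puts the rat surface protein CD2 on those cells, where an antibody can find it. A silencer is a stretch of DNA that represses a promoter in the cells where its repressors bind, and Groucho and CtBP are corepressors that many fly repressors recruit. The low-GFP gate of the screen enriches cells that carry a working silencer. The control sorts show the pool before that gate. An insertion inherited through the germ line is carried by every cell of an embryo, whatever its tissue.

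All 12 libraries share 1 cross. Males with random picks from a pool of reporter insertions were mated in cages to twi:CD2 virgin females, and embryos were collected for 2.25 h and aged for 11 h at 18 °C. Inserts were recovered from genomic DNA of the sorted cells by nested PCR, and the counts are therefore counts of DNA amplicons, not of RNA. They hold no expression, so no mesodermal marker could be read from them to check the sort. Many males and embryos were pooled in each library, and how many insertions or cells stand behind an element is not given in the sources used here.

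Libraries held 3399506 to 4917450 read 1 counts in CD2+ cells and 3497557 to 5934098 in CD2- cells. Levels are given as CPM, the library's read 1 counts scaled to a sum of 1e+06. A count of 0 allows up to 3 counts, which is 0.610 to 0.882 CPM in CD2+ and 0.506 to 0.858 CPM in CD2- libraries. These limits cover counting error only, since the amplicons carry no molecular identifiers and PCR copies are counted again.

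Each element is read through a barcode of 12 bases, and any 2 of the 576 barcodes differ at 3 or more positions. The barcodes of 7 elements that carry the results are shown, all in capitals because the whole barcode identifies the element. The first 3 are gene-named elements among the 12 most abundant, and the other 4 lie at the ends of the tissue comparison.
ple_WE1: ACCGTCTTAGCA
cas_csc-8: TTACCCAGCTTT
elav_construct_L: CGCAAGCTAGGT
ems_ems_ARFE-subA: TAAAGGCAGAAC
dpp_dppho: GGACTGGGTAAA
ato_RE: GCAAGCTATGTC
ct_340: TCTACGGTGCTA
By the gene each is named after, ple lies on chromosome arm 3L, cas, ems and ato on 3R, dpp on 2L, and elav and ct on X. Positions and insert sequences of the elements were not used here. Barcode base composition did not separate recovered from unrecovered elements, with a median GC content of 50% in each.

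The unselected pool was broad but uneven, and a large part of the designed set was not recovered from these cells. Of 576 elements, 410 had a read in at least 1 of the 12 libraries, 214 had a read in all 12, and 166 (28.8%) had none. Of the 166, 6 had a read in the low-GFP libraries of the same round and 160 had none in any of its 18 libraries. At a stricter level of 10 CPM, 370 elements were present in at least 1 library and 110 in all 12. The elements with a read had a median of 1151 CPM (quartiles 267 and 3032 CPM), against 1736 CPM if all 576 were equally frequent. By mean share, 48 elements held 50% of the counts and 183 held 90%.

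The levels within a library fell into separate ranges. Of all nonzero values, 45.7% lay between 1000 and 10000 CPM and 22.5% between 100 and 1000 CPM, but only 4.94% between 10 and 100 CPM. Below that thinly filled range lay another 7.45% between 1 and 10 CPM and 12.4% under 1 CPM. The values under 10 CPM made up 0.00579% to 0.0193% of the counts of a CD2+ library and 0.00434% to 0.0222% of a CD2- library.

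The most abundant element was ChIPCRM5432, a numbered region taken from ChIP predictions of enhancers. It had 28393, 48769, 19893, 27417, 29674 and 21743 CPM on days 1 to 6 in CD2+ cells, against 33952, 40855, 28686, 24778, 30653 and 27424 CPM in CD2- cells. It was therefore among the leading elements in both tissues on every day, and it was lower in CD2+ on 4 of 6 days. Its 95% interval for the tissue difference was one of the narrowest, from -0.36 to 0.23 on the log2 scale (limma with collection day as a block).

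Next came Cpr47Ee_CG13222-edge, beside the cuticle protein gene Cpr47Ee, with 23787 ± 7028 CPM in CD2+ cells and 23045 ± 16618 CPM in CD2- cells (SD, n = 6 each). The insulator element ClassI_ins_61 had 21309 ± 6438 CPM in CD2+ and 21927 ± 6713 in CD2- cells. Insulators are elements that limit the reach of enhancers. Dll_215, of the limb selector gene Distal-less, had 18765 ± 8062 CPM in CD2+ and 16286 ± 9018 in CD2- cells. The boundary enhancer of the wing gene vestigial, vg_minimal_boundary_enhancer, had 17038 ± 7874 CPM in CD2+ and 17693 ± 5723 in CD2- cells. In each of these 4 elements the means of the sorts differed by less than 1 SD of either sort.

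The other 7 of the 12 most abundant elements had lower means over the 12 libraries. ple_WE1, of the tyrosine hydroxylase gene that makes dopamine precursors, had 14149 ± 5182 CPM in CD2+ and 14444 ± 4532 in CD2- cells (SD, n = 6 each). elav_construct_L, of the neuronal RNA-binding protein gene elav, had 13500 ± 5506 CPM in CD2+ and 12922 ± 1757 in CD2- cells. cas_csc-8, of the neuroblast timing factor castor, was scarce on day 1 in both sorts, with 2849 CPM in CD2+ and 1591 in CD2- cells, against 8532 to 22475 CPM in CD2+ and 6530 to 22742 in CD2- cells on days 2 to 6. The segment polarity element gsb_fragIV, of the gooseberry gene, ranged from 5835 to 27201 CPM in CD2+ and from 4474 to 20395 in CD2- cells. The regions BiTS-ChIP_K4me1+K27me3+K27ac_246 and BiTS-ChIP_K4me1+K27me3+K27ac_96, named after histone marks, averaged 15973 and 14763 CPM in CD2+ and 15866 and 10814 in CD2- cells. The last of the 12, CG16778_tkr-15, is described with the experiments below.

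**Figure D1:**
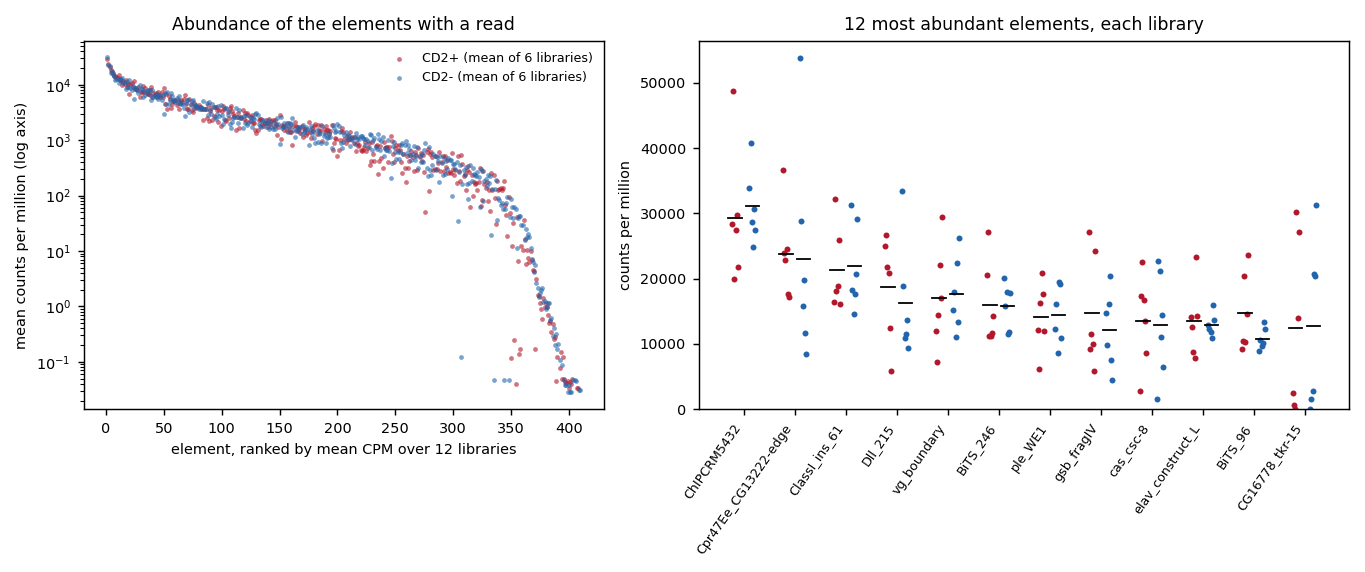
Left, mean CPM (log axis) of the 410 elements with a read, ranked by their mean over 12 libraries, for CD2+ (red) and CD2- (blue) cells. Right, CPM of the 12 most abundant elements, CD2+ left of CD2-, 1 point per library and a bar at the mean of 6; the sorts lie over each other for every element, and CG16778_tkr-15 splits into libraries at 2844 CPM or less and at 13945 CPM or more.

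No source class was missing from the pool, and none was confined to a tissue. CtBP-bound regions, 92 elements, took 12.5% of the counts in CD2+ and 12.6% in CD2- cells, with 22 members not recovered. Groucho-bound regions, 57 elements, took 6.43% in CD2+ and 6.65% in CD2- cells, with 20 not recovered. Open regions with the repressive mark H3K27me3, 41 elements, took 5.92% in CD2+ and 6.50% in CD2- cells and were lower in CD2+ on 5 of 6 days. The 30 insulators took 4.73% in CD2+ and 5.23% in CD2- cells, and 12 of them (40.0%) were not recovered. Among the 14 insulators tested, 11 had a fitted log2 fold change below 0 and none was called. CAD2 enhancers, 25 elements named after genes or numbered mesodermal regions, took 3.47% in CD2+ and 3.11% in CD2- cells. Their share went with the day in both sorts: 5.38% and 5.32% in CD2+ against 4.75% and 3.70% in CD2- cells on days 1 and 2, and 2.03% to 3.12% in CD2+ against 2.04% to 3.19% in CD2- cells on days 3 to 6.

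The elements named E. coli controls are bacterial DNA in the same pool. Of 12, 9 had a read, and they took 1.12% ± 0.21 of the counts in CD2+ and 1.39% ± 0.70 in CD2- cells (SD, n = 6 each). Ecoli_control11 was the most abundant, with 542 to 6338 CPM in CD2+ and 789 to 14250 in CD2- cells. Ecoli_control22 had 368 to 3341 CPM in CD2+ and 106 to 1875 in CD2- cells. Ecoli_control15 was present by turns, with 1385 CPM in CD2+ against 758 CPM in CD2- cells on day 6, 1.07 CPM in CD2+ against 4182 CPM in CD2- cells on day 1, and 0 in both sorts on days 2 to 4. Ecoli_control16 had 1 count in each of 2 libraries. Only 4 of the 12 had a read in every library.

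How many elements a library held was not shown to differ between the sorts. A CD2+ library held 325, 347, 344, 368, 363 and 332 elements on days 1 to 6, against 324, 364, 361, 351, 355 and 316 in CD2- libraries. The effective number of elements, the number of equally frequent elements that would give the same Shannon entropy, was 142, 152, 150, 153, 155 and 121 in CD2+ cells, against 117, 161, 173, 162, 156 and 126 in CD2- cells. Days 1 and 6 had the fewest elements with a read in both sorts. The 10 most abundant elements of a library held 21.8% ± 1.59 of the counts in CD2+ and 21.3% ± 3.33 in CD2- cells (SD, n = 6 each). Altogether 4 such summaries were compared by an exact two-sided sign-flip test over 6 days, whose smallest possible p is 0.0313. None passed: adjusted p was 0.906 for the elements with a read and 0.833 for the effective number, for the share of the 10 most abundant elements and for the share of E. coli controls (unadjusted exact p from 0.406 to 0.906). The mean daily difference was 1.33 ± 15.3 elements with a read and -3.84 ± 16.1 in the effective number, CD2+ minus CD2- (SD over 6 days).

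The tissue comparison asks whether an element was recovered from mesodermal cells more or less often than from the other cells of the same embryos. No element was called by edgeR's quasi-likelihood test with experiment as a term. Of 314 elements that passed the filter on low counts, 0 (0.00%) had a Benjamini-Hochberg adjusted p under 0.05, where the smallest was 0.999, and 3 had an unadjusted p under 0.05. With collection day as a block, 0 were called and 2 had an unadjusted p under 0.05. DESeq2 without the block also called 0 (17 unadjusted), limma with the block 0 (14 unadjusted), and DESeq2 with the block called 5 (1.59%), 1 higher and 4 lower in CD2+ cells. With no difference, unadjusted p-values would fall under 0.05 at a rate of about 0.05. The share was lower for edgeR, at 0.955% and 0.637% with the block, so its p-values ran high on these counts. It was 5.41% for DESeq2, 4.46% for limma with the block and 13.1% for DESeq2 with the block. In a fit of all 18 libraries of the round, which share these controls, CD2+ against CD2- again gave 0 calls of 358 by edgeR (6 unadjusted), while low-GFP cells gave 74 calls (20.7%) against CD2+ and 76 (21.2%) against CD2- cells.

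In experiment 1, 0 of 324 elements (0.00%) were called by edgeR, with 2 at an unadjusted p under 0.05. In experiment 2, 0 of 323 (0.00%) were called, with 3 unadjusted. The test of a tissue difference that itself differed between the experiments called 0 of 314 (0.00%) by edgeR, with 10 unadjusted, and 4 by DESeq2. The groups of 6 libraries did not overlap for 0 of the 314 elements (0.00%). The biological coefficient of variation fitted by edgeR was 1.48, and 1.28 with collection day as a block.

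A call of 0 does not show that the elements were equally frequent, and the intervals show how far each could be bounded. The 95% interval of the difference (limma on log2 CPM with a prior count of 2, day as a block) lay within 4-fold either way for 84 of 314 elements and within 2-fold for 28, and it reached past 16-fold for 161. The median interval extended 2.86 log2 units to each side. Precision came with abundance: among the elements with a mean of 3003 CPM or more, 68 of 105 intervals lay within 4-fold, against 9 of 104 at 1021 to 2929 CPM and 7 of 105 at 997 CPM or less. Most of the 12 most abundant elements, such as ChIPCRM5432, elav_construct_L (-0.37 to 0.46) and ple_WE1 (-0.69 to 0.68), were bounded within 2-fold. The exceptions were gsb_fragIV (-0.75 to 1.33), BiTS-ChIP_K4me1+K27me3+K27ac_96 (-0.16 to 1.02) and CG16778_tkr-15 (-4.92 to 4.68). The interval included 0 for 300 elements.

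**Figure D2:**
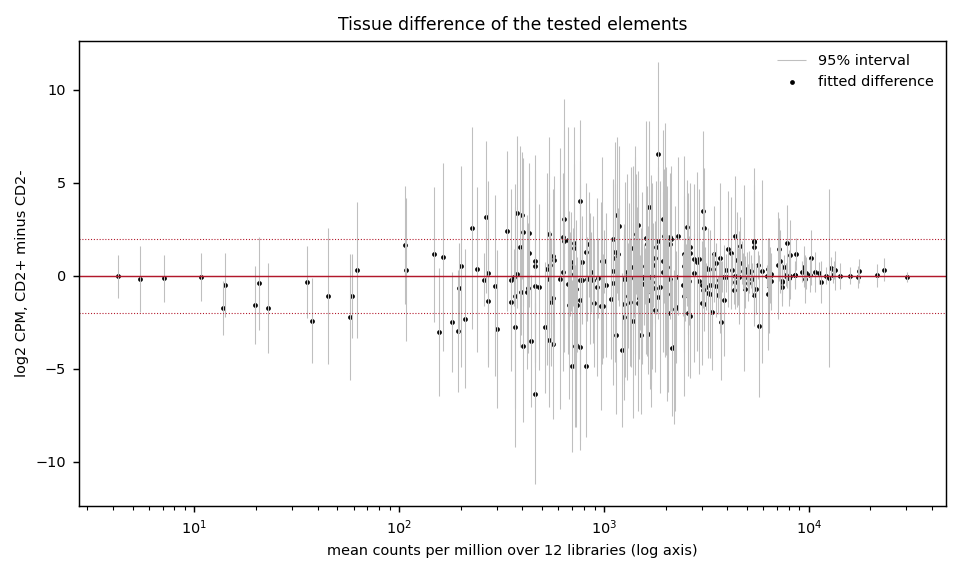
Difference in log2 CPM, CD2+ minus CD2-, of the 314 tested elements (points) with 95% intervals (grey lines) against mean CPM over the 12 libraries (log axis). Intervals narrow at the right, among the most abundant elements; dotted lines mark 4-fold either way.

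Of the 314 elements, 5 (1.59%) were higher in CD2+ on all 6 days and 7 (2.23%) were higher in CD2- on all 6 days. With no difference between the sorts, all 6 days would agree in either direction at a rate of about 0.0313. Such agreement alone therefore does not mark a tissue difference. The most abundant of the 12 was ems_ems_ARFE-subA, of the head gap gene empty spiracles. It had 19227, 13708, 19351, 4879, 9824 and 3136 CPM in CD2+ cells on days 1 to 6, against 10495, 8597, 3596, 4855, 4776 and 1012 CPM in CD2- cells. The sorts overlapped, and on day 4 they were nearly equal. edgeR gave it a log2 fold change of 1.00 with an SE of 0.46 (adjusted p = 0.999, unadjusted p = 0.0497), with a limma interval of 0.30 to 2.04.

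dpp_dppho, of the BMP ligand gene decapentaplegic, was also higher in CD2+ on every day. It had 1580, 1673, 1593, 3368, 5146 and 3729 CPM in CD2+ cells, against 0, 527, 0.169, 2349, 2145 and 0.268 CPM in CD2- cells. On 3 of the days it was all but absent from CD2- cells, with at most 1 count, and on the other 3 it was present in both sorts. DESeq2 with the block called it (log2 fold change 7.33, adjusted p = 9.94e-05), edgeR with the block did not (7.06, adjusted p = 0.997), and without the block edgeR gave 2.47 (SE 1.78, adjusted p = 0.999). With the block the edgeR value was 3.54 to 3.63 without day 1, 3 or 6 and 10.87 to 11.03 without day 2, 4 or 5. Without the block it ran from 2.07 without day 3 to 3.95 without day 2.

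CAD2_pnr, of the GATA factor gene pannier that acts in dorsal ectoderm and heart, was higher in CD2+ on 5 of 6 days. It had 10172, 10884, 5799, 3478, 5734 and 3029 CPM in CD2+ cells, against 2645, 4212, 240, 2366, 1941 and 5136 CPM in CD2- cells. The sorts overlapped, with day 6 the other way (log2 fold change 1.16, SE 0.66, edgeR adjusted p = 0.999). With collection day as a block, its limma interval was 0.07 to 3.14 (limma adjusted p = 0.798).

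Among the 10 smallest p-values, 3 abundant elements had lower levels in CD2+ cells, none of them past the threshold. ato_RE, of the proneural gene atonal, had 5462, 4296, 3304, 3452, 1625 and 1485 CPM in CD2+ cells, against 6996, 6872, 4029, 5519, 4683 and 4246 CPM in CD2- cells. It was lower in CD2+ on all 6 days, by a fitted log2 value of -0.78 (SE 0.45, edgeR adjusted p = 0.999). With collection day as a block, its limma interval was -1.53 to -0.02 (limma adjusted p = 0.798). The Groucho-bound regions E0_12_GROAviva_ChIP_chip.region_441 and E0_12_GROAviva_ChIP_chip.region_422 were lower in CD2+ on 5 of 6 days each, averaging 1827 and 3803 CPM in CD2+ against 4364 and 6976 CPM in CD2- cells. Their limma intervals were -2.96 to -0.09 and -2.17 to 0.12, in that order (limma adjusted p = 0.798 each).

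CAD2_sns, of the cell adhesion gene sticks and stones needed for myoblast fusion, was rare in both sorts. It had 22.8, 265, 33.5, 37.2, 13.2 and 12.5 CPM in CD2+ cells, against 77.2, 397, 545, 38.3, 133 and 609 CPM in CD2- cells. It was lower in CD2+ on all 6 days, although on day 4 by little. The fitted log2 value was -2.62 (SE 1.32, edgeR adjusted p = 0.999), and it was -1.58 without day 6 and -3.52 without day 2. With collection day as a block, the limma interval of CAD2_sns was -5.15 to 0.20 (limma adjusted p = 0.798). In the low-GFP libraries of the same days it had 6246 to 15363 CPM, above every control library. CG9571_O-E, which had the smallest unadjusted p of all (0.0129), was rarer still, with 1.78 to 34.7 CPM in CD2+ and 14.8 to 144 in CD2- cells and a fitted log2 value of -2.63 (SE 0.92, edgeR adjusted p = 0.999). Its limma interval was -4.71 to -0.15 (limma adjusted p = 0.798). ovo_del-ap-del-5, of the epidermal differentiation gene ovo, had 0 to 15.3 CPM in CD2+ and 0 to 130 in CD2- cells. E_0_12h_dCtBP7667.region_991 had 0 to 49.7 CPM in CD2+ and 0 to 115 in CD2- cells.

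The 4 elements that DESeq2 with the block called lower in CD2+ shared 1 pattern, presence in CD2- libraries beside 0 or a few counts in CD2+ libraries on some days. ct_340, of the homeodomain gene cut, had 1.07, 0, 0, 0.203, 296 and 0.254 CPM in CD2+ cells, against 3394, 277, 737, 769, 70.8 and 0 CPM in CD2- cells. The difference lay on days 1 to 4, and day 5 ran the other way (DESeq2 adjusted p = 2.70e-07, edgeR with the block adjusted p = 0.997). Its edgeR log2 fold change was -6.58 without the block, and ran from -9.55 without day 6 to -3.64 without day 1; without day 5 it was not tested. Rh6_-555_+121, of a photoreceptor opsin gene, had 0.203 to 1107 CPM in CD2+ and 304 to 2427 in CD2- cells (DESeq2 adjusted p = 0.00997). DHS+K27me3_one-hit_2588 had 0 to 1284 CPM in CD2+ and 51.5 to 2916 in CD2- cells (DESeq2 adjusted p = 0.00213). Rbp4_pPa104_69, of an RNA-binding protein gene, was called lower (DESeq2 adjusted p = 0.000337) although its mean was higher in CD2+, at 432 CPM against 303 CPM in CD2- cells. Day 1 had 2274 CPM in CD2+ against 0.282 CPM in CD2- cells, and every other CD2+ library was at or below 315 CPM. Its fitted value without the block was 0.05 (edgeR).

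**Figure D3:**
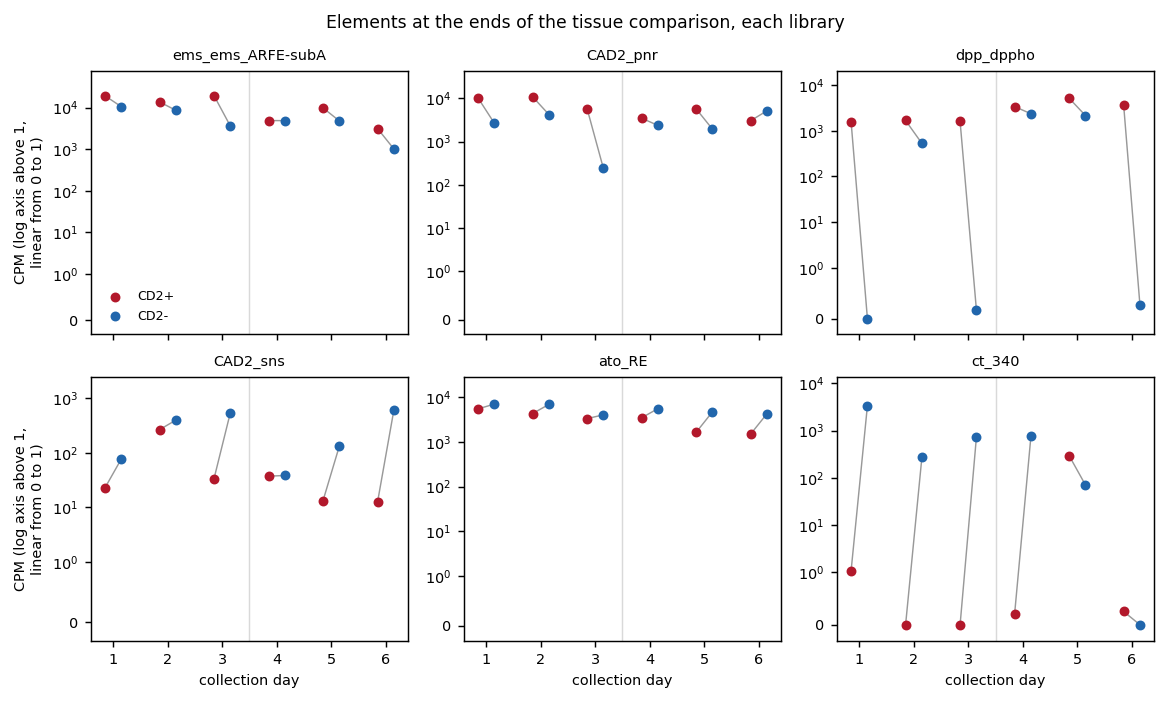
CPM of 6 elements in CD2+ (red) and CD2- (blue) libraries on days 1 to 6, joined by day (log axis above 1 CPM, linear from 0 to 1). ems_ems_ARFE-subA, CAD2_sns and ato_RE run 1 way on every day with reads in both sorts, while dpp_dppho and ct_340 drop to 1.07 CPM or less in a sort on some days.

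The elements were also grouped by what their genes do, and no group had a called member. For all 314 tested elements the median log2 fold change was 0.02 (edgeR, CD2+ over CD2-), with 162 above 0 and 152 below. Elements of mesoderm and muscle genes, 30 in the pool and 14 tested, had 0 called and a median of -0.32, with 10 of 14 below 0. They took 4.45% ± 0.485 of the counts in CD2+ and 4.39% ± 0.809 in CD2- cells (SD, n = 6 each). Elements of neuroectoderm and midline genes, 9 tested of 21, had 0 called and a median of -0.10. brk_NEE-long, of the repressor gene brinker, was the most abundant of them, with 889 to 3100 CPM in CD2+ and 1.28 to 6180 in CD2- cells. Segmentation gene elements, 21 tested of 29, had 0 called and a median of 0.15, and nervous system and eye elements, 30 tested of 43, had 0 called and a median of -0.01.

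Elements of dorsal ectoderm genes, which pattern the dorsal side under BMP signalling, had 6 tested of 14, 0 called and a median of 1.15. They took 1.30%, 1.39%, 1.09%, 1.21%, 1.74% and 1.74% of the counts in CD2+ cells on days 1 to 6, against 0.398%, 0.631%, 0.556%, 1.08%, 1.15% and 0.700% in CD2- cells. The share was higher in CD2+ on each day, and the sorts overlapped. dpp_dppho and CAD2_pnr, described above, belong to this list and to that of mesoderm and muscle genes. These 2 were picked with their values known, so a smaller difference without them followed from the choice. The other 12 elements took 0.474% ± 0.355 in CD2+ and 0.393% ± 0.265 in CD2- cells. They were higher in CD2+ on 1 of 6 days, day 6 (1.06% against 0.186% in CD2- cells). Elements of gap, terminal and head gap genes, 17 tested of 34, had 0 called and a median of 0.36, with 13 of 17 above 0. They took 5.37% to 10.8% in CD2+ and 4.97% to 6.76% in CD2- cells, higher in CD2+ on 5 of 6 days. ems_ems_ARFE-subA belongs to it, as does tll_K7, of the terminal gap gene tailless and chosen after its values were seen, which had 30764 CPM in CD2+ against 4588 CPM in CD2- cells on day 6. Without these 2, again picked with their values known, the share was 5.60% ± 1.41 in CD2+ and 4.99% ± 0.689 in CD2- cells, higher in CD2+ on 4 of 6 days. Its most abundant member oc_otd-186, of the head gene orthodenticle, had 10318 ± 4174 CPM in CD2+ and 8986 ± 2364 in CD2- cells (SD, n = 6 each).

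Elements of 1 gene differed widely in level. The 8 elements of castor spanned mean levels from 0 to 13253 CPM, and 3 of them were not recovered. Of the 7 decapentaplegic elements 2 were not recovered and none was in all 12 libraries, and the 2 tested had log2 fold changes of -0.51 and 2.47. All 5 elements of the pigment gene ebony were recovered, at mean levels from 1412 to 9467 CPM, with log2 fold changes from -0.56 to 0.56. Of the 7 hunchback elements 4 were not recovered and none passed the filter of the tissue comparison.

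Presence and absence within a day differed between the sorts for a minority of elements. Over the 6 days, 1946 combinations of element and day had reads in both sorts, 133 in CD2+ only and 125 in CD2- only. The one-sided ones were mostly faint, with a median of 1.07 CPM for CD2+ only and 0.563 CPM for CD2- only, against medians of 1286 CPM in CD2+ and 1378 in CD2- cells where both had reads. Some were not: 50 of the CD2+ only and 32 of the CD2- only combinations reached 100 CPM. Among them, 13 reached 1000 CPM in CD2+ with 0 counts in CD2- cells, and 3 the reverse. The 13 included 6 on day 6 and 4 on day 4, and the 3 were 2 on day 3 and 1 on day 6. The highest was E_0_12h_dCtBP7667.region_2827, a CtBP-bound region chosen after its values were seen, with 6788 CPM in CD2+ against 0 in CD2- cells on day 6.

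A wider count took combinations at 100 CPM or more in at least 1 sort, 1766 in all. Of these, 1356 (76.8%) reached 100 CPM in both sorts, 166 (9.40%) did so in CD2+ with under 10 CPM in CD2- cells, and 171 (9.68%) in CD2- with under 10 CPM in CD2+ cells. On day 1, 69 elements were seen in CD2+ with under 10 CPM in CD2- and 9 the other way. On day 3 it was 14 in CD2+ and 67 in CD2-. On day 5, the day with the closest sorts, it was 18 in CD2+ and 5 in CD2-. The direction on these days went with how many elements each library held at 10 CPM or more. On day 1 this was 269 in CD2+ and 210 in CD2-. On day 3 it was 250 in CD2+ and 303 in CD2-, and on day 5 it was 320 in CD2+ and 306 in CD2-. The cause was not tested. Over all 6 days together, 398 elements had reads in both sorts, 6 in CD2+ alone and 6 in CD2- alone. Of those 12, E_0_12h_dCtBP7667.region_3602, also chosen after its values were seen, reached 217 CPM in CD2+, and the others reached at most 0.674 CPM in any library.

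The libraries grouped by day and experiment rather than by tissue. Across the 314 tested elements, log2 CPM of the 2 sorts of a day correlated at 0.50 to 0.74 (median 0.64), libraries of the same sort on other days of an experiment at a median of 0.49, and libraries of the same sort in different experiments at a median of 0.37. These correlations are a description: the libraries share 1 pool of constructs, and elements are not independent. For 9 of 12 libraries the closest was the other sort of its own day, for 12 of 12 it came from its own experiment, and for 2 of 12 it was of its own sort. Of the total spread of log2 CPM, days within experiments held 43.9% (4 degrees of freedom), the experiments 21.9% (1 degree of freedom), CD2+ against CD2- 5.76% (1 degree of freedom), its variation between experiments 5.33% (1 degree of freedom), and its variation between days 23.0% (4 degrees of freedom). Per degree of freedom and element, the mean square was 7.70 for the tissues and 7.71 for their variation between days, against 29.3 for the experiments and 14.7 for the days.

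**Figure D4:**
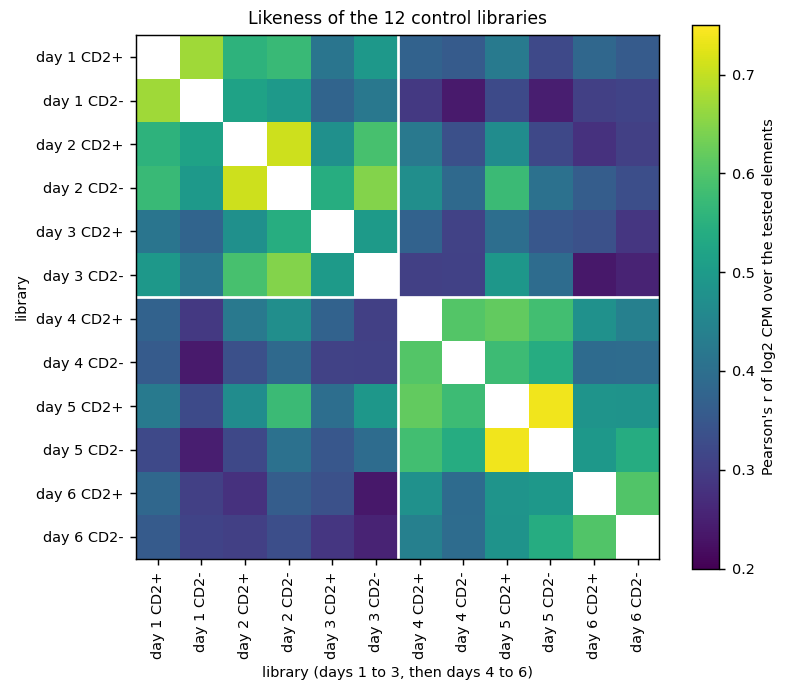
Pearson's r of log2 CPM over 314 elements for each pair of the 12 libraries, ordered by day with CD2+ before CD2-. White lines separate days 1 to 3 from days 4 to 6; values are higher within an experiment, and the 2 sorts of days 1, 2 and 5 are the closest pairs.

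The experiments were compared on daily sums of the CD2+ and CD2- counts, 3 days in experiment 2 against 3 in experiment 1. edgeR called 24 of 353 elements (6.80%), of which 14 were higher and 10 were lower in experiment 2, with 52 at an unadjusted p under 0.05. The libraries of the experiments did not overlap for 30 elements (8.50%). With 3 dates in each experiment, the order of the dates alone can separate the libraries, and how often it would was not computed. This share by itself therefore does not mark a difference between the experiments. Without day 1, 2, 3, 4, 5 or 6 there were 4, 2, 4, 2, 3 and 10 calls, with 2 days set against 3. Elements named in the following were chosen after their values were seen, unless they are among the most abundant or most variable.

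CG16778_tkr-15, of the gene now named lov, was called with all 6 days and without each day, but not when the 12 libraries were fitted singly (log2 fold change 4.44, edgeR adjusted p = 0.142). It had 13945 to 30181 CPM in CD2+ and 20326 to 31308 in CD2- cells in experiment 2, against 2.60 to 2522 CPM in CD2+ and 1.97 to 2844 in CD2- cells in experiment 1 (log2 fold change 4.31, SE 0.39, edgeR adjusted p = 0.00290). It was thus a leading element of the pool on days 4 to 6 only. kni_proximal_minimal, of the gap gene knirps, also stayed called without each day. It passed the filter on low counts through experiment 2 alone, where it was high, so these calls are no separate support for a difference. In experiment 2 it had 0.813, 4440 and 6863 CPM in CD2+ and 2813, 2602 and 0.803 in CD2- cells, and in experiment 1 no library exceeded 0.572 CPM (edgeR adjusted p = 0.00424). On day 4 it was below 1 CPM in CD2+ cells, and on day 6 it was below 1 CPM in CD2- cells.

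E0_12_GROAviva_ChIP_chip.region_131 had 196, 856 and 573 CPM in CD2+ and 418, 2310 and 1203 in CD2- cells in experiment 2, and 0 counts in all 6 libraries of experiment 1. Against a floor of 3 counts per library, its mean was at least 1207-fold higher in experiment 2 (edgeR adjusted p = 0.0373, and 0.0585 to 0.138 without any 1 day). vas_96bpEnhancer, of the germline helicase gene vasa, had 99.4 to 1080 CPM over the 6 libraries of experiment 2 and at most 0.282 CPM in experiment 1 (edgeR adjusted p = 0.0386, and 0.0662 to 0.145 without any 1 day). Its log2 fold change was 13.28, and 12.42 to 15.28 without each day. These sizes rest on its near-absence from experiment 1, below the floor of 3 counts per library, and are not measured ratios. Both elements passed the filter on low counts through experiment 2 alone, so their adjusted p-values are no separate support for a difference.

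Other elements ran the opposite way. CG13196_1kb_5' had 0 to 1.02 CPM over the libraries of experiment 2, against 1229, 4293 and 3452 CPM in CD2+ and 0.282, 3884 and 2959 in CD2- cells in experiment 1 (log2 fold change -12.44, edgeR adjusted p = 0.0235). Without day 2, 3, 4 or 5 the adjusted p was above 0.05, up to 0.121. The log2 fold change without each day ran from -13.44 to -11.86, sizes that rest on the few counts of experiment 2. ChIPCRM5405 had at most 0.535 CPM in experiment 2, against 3655, 394 and 2.12 CPM in CD2+ and 8928, 662 and 1837 in CD2- cells in experiment 1 (log2 fold change -13.74, edgeR adjusted p = 0.0235). The log2 fold change without each day was -15.20 to -11.92, with an adjusted p of 0.0418 without day 6 and of 0.0585 to 0.115 without each of the others. These sizes likewise rest on counts below the floor in experiment 2. ChIPCRM5405 and CG13196_1kb_5' passed the filter on low counts through experiment 1 alone, so their adjusted p-values are no separate support for a difference. Among the elements with the largest spread between days, repo_-1.1, of the glial master gene repo, was not called. It had 4698, 6566 and 1338 CPM in CD2+ and 5757, 7080 and 3370 in CD2- cells in experiment 2, against 522 CPM in CD2+ and 638 in CD2- cells on day 3 and at most 0.572 CPM on days 1 and 2 (edgeR adjusted p = 0.504). In repo_-1.1 the sorts followed each other day by day.

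**Figure D5:**
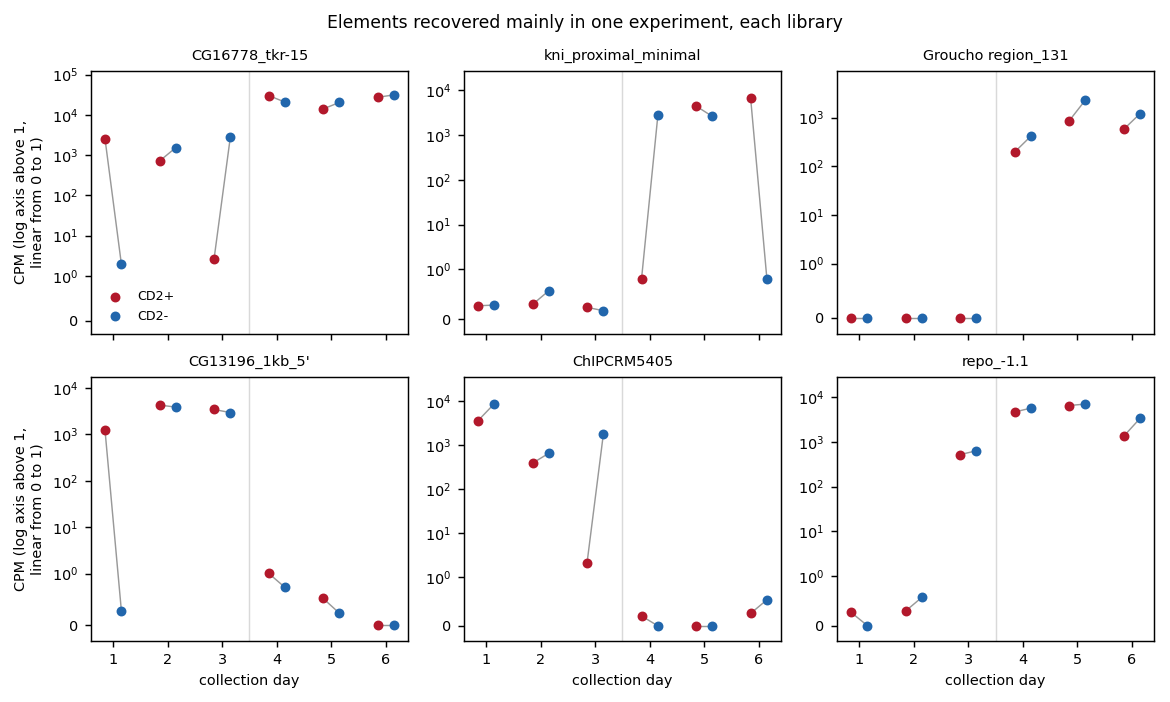
CPM of 6 elements in CD2+ (red) and CD2- (blue) libraries on days 1 to 6, joined by day (log axis above 1 CPM, linear from 0 to 1), with a line between the experiments. CG16778_tkr-15, kni_proximal_minimal, Groucho-bound region 131 and repo_-1.1 are high in days 4 to 6, CG13196_1kb_5' and ChIPCRM5405 in days 1 to 3, and kni_proximal_minimal is below 1 CPM in 1 sort on days 4 and 6.

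In all, 18 elements averaged 100 CPM or more in experiment 2 with under 10 CPM in every library of experiment 1, and 15 did the reverse. Of these 33, 16 were among the 24 called. The 33 were picked from the same counts that the test used, so this overlap is no separate support. Of the 24 called, 15 had at most 3 counts in every library of 1 experiment. Those 15 passed the filter on low counts through the other experiment alone. The 18 took 1.38% of the counts in experiment 2, and the 15 took 1.47% in experiment 1.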

How the data were processed

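Counts of DNA amplicons per element were analysed for the 12 control libraries of round 1, as read 1 counts deposited by the authors per barcoded element, with empty cells taken as 0. The submitters' processing notes name DESeq, while an aligner, trimming and counting rules are not given there or in the labels. CPM is each count over the library's read 1 total. Elements were filtered with filterByExpr (minimum count 10) and tested with edgeR 4.0.16 (TMM scaling, quasi-likelihood test, population and experiment as terms, Benjamini-Hochberg adjustment over all elements tested, called at 0.05) in R 4.3.3. An SE is the log2 fold change over the square root of F and restates the test. Intervals came from limma 3.58.1, and DESeq2 1.42.0 was an alternative. Exact tests used scipy 1.17.1. The fitting of edgeR and limma was run on simulated counts with known fold changes. Those counts had less spread than these libraries and no shared day or experiment effect, and DESeq2 was not included. The simulation therefore does not show how the tests behave on these data.

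Replicates are collection dates, with no further statement on separate cages. The main edgeR tissue test used the spread between libraries within an experiment and left out the pairing by date. Fits with collection day as a block and the sign-flip test used the spread of the daily difference between the sorts. The test between experiments on daily sums used the spread between dates. The dates in the titles pair the sorts, and within each experiment the deviations of the 2 sorts of a day from their group means correlated at 0.164 to 0.383 over 314 elements. No 2 libraries agreed within sampling noise (chi-square per degree of freedom 1367 or more), and the lowest correlation of a library's read 1 with its read 2, on log2 counts, was 0.996. Of 307 elements named after a gene or the CAD2 set, 286 were matched to a RefSeq symbol (Release 6 names). The insulator class was set by a name pattern corrected after the names were seen. The comparison, the 6 gene lists and the members were chosen with earlier results of these data known. Elements are named if among the 12 most abundant, the 10 smallest p-values, the 6 with the largest spread between days at 100 CPM or more, the E. coli controls, the most abundant or most changed tested member of a class or list, or called by an alternative; others are said to be chosen after their values were seen.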

Additional observations from a re-analysis of the deposited data

Results flagged for a closer look

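Among 52 groups of 6 libraries (4 library summaries, the 12 most abundant elements and the 10 smallest p-values, in each sort), 4 held a library far from the other 5 by Dixon's criterion, which chance meets in about 1 of 20 groups. ChIPCRM5432 had 48769 CPM in CD2+ on day 2, against 19893 to 29674 CPM in the other CD2+ libraries. CAD2_sns had 265 CPM in CD2+ on day 2, against 12.5 to 37.2 CPM on the other days. E_0_12h_dCtBP7667.region_991 had 49.7 CPM in CD2+ on day 2 and 115 CPM in CD2- on day 3, above at most 8.03 CPM in the other CD2+ and 26.2 CPM in the other CD2- libraries.

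In the low-GFP libraries, which are not part of the comparison of CD2+ with CD2- cells, 2 elements with no read in any of the 12 control libraries were recovered above 3 counts. E0_12_GROAviva_ChIP_chip.region_470 had 145 CPM on day 6, and E_0_12h_dCtBP7667.region_909 had 42.5 CPM on day 3.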

How the results depend on the processing

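The count of elements called between CD2+ and CD2- cells was 0 by edgeR under every alternative run: the replicate block (0 calls), no experiment term, total counts, DESeq2 size factors, E. coli scaling, no filter, a mean of at least 100 CPM, read 2, both reads, all 18 libraries, and each day left out (0 to 0), also with the block (an alternative added after seeing the data). DESeq2 with the replicate block gave 5 calls. For a tissue difference that itself differed between the experiments, DESeq2 gave 4 calls and edgeR gave 0. The cause was not tested. E. coli scaling moved the median log2 fold change of all tested elements to 0.38, against 0.02 with TMM; leaving out day 1 or day 4 moved it to 0.12 or 0.14. Within each experiment the count stayed at 0 without any 1 library, with total counts and with the replicate block. The log2 fold change of Rbp4_pPa104_69 changed sign, to -6.92 with the replicate block, -0.10 with total counts, -0.90 with E. coli scaling, -0.023 with a mean of at least 100 CPM, -8.17 in DESeq2 with the block and -2.74 in limma. Leaving out single days moved it between -3.53 and 1.00. With the block it was -9.02, -3.90, -3.94, -3.90 and -6.97 without days 1, 2, 3, 4 and 6, and without day 5 it was not tested. The experiments gave 5 calls when the 12 libraries were fitted singly and 2 to 10 calls without 1 day. The difference in elements with a read was -3.50 at 10 CPM or more, and -1.80 to 5 without 1 day; that in the effective number ran from -9.59 to 0.18 (without day 3). A test over 5 days cannot give a p below 0.0625. The number of cells and insertions behind a count is unknown.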
